A study of Mus musculus with 12 samples.

Results

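The genes described here are the mouse solute carriers of the 11 families Slc4, Slc5, Slc6, Slc9, Slc12, Slc13, Slc17, Slc22, Slc26, Slc34 and Slc47, which move ions, glucose, amino acids, phosphate, sulfate and organic anions and cations across cell membranes. Members were chosen by symbol, as all protein-coding genes named for these families, and not by a limit on any measured value. The families and the gene lists used below were chosen with earlier results of these data known. There were 119 members among the 25514 genes of the count files, 26 of them in Slc22, 21 in Slc6, 13 in Slc5, 11 each in Slc4 and Slc26, 9 each in Slc9, Slc12 and Slc17, 5 in Slc13, 3 in Slc34 and 2 in Slc47. Slc4a1ap carries the family's name but encodes an adaptor protein, which leaves 118 carriers. RNA was sequenced from conditionally immortalized proximal tubule (PT) cells, isolated from mice with floxed alleles of Tgfbr2, the gene of the TGF-β type II receptor (TβRII), and with a T antigen that works only at low temperature (H2ts6 in the labels), the Immorto-mouse allele. TβRII flox/flox PT cells kept the receptor gene, and TβRII-/- PT cells had been derived from them with Cre recombinase in culture, so the genotypes were 2 cell lines, and what the deletion did cannot be told apart from anything else that differs between them. Each line was sequenced untreated, in complete culture medium, and after 24 h of H2O2 in serum-free medium, with 3 libraries in each of the 4 groups. H2O2 and the removal of serum cannot be told apart either. All cells had grown at 33 °C with interferon gamma and had been moved to 37 °C for 5 days, which switches the T antigen off. The labels give the H2O2 dose as 200 mM and the study's methods as 200 μM.

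In the kidney, the proximal tubule reabsorbs most of the filtered glucose, amino acids, phosphate and bicarbonate. Sodium-coupled carriers of the apical membrane (Slc5 for glucose and other small solutes, Slc6 for amino acids, Slc34 for phosphate, Slc13 for sulfate and dicarboxylates, Slc9 for sodium-proton exchange) draw on the sodium gradient that the sodium pump sets up, and basolateral carriers pass bicarbonate (Slc4) and organic ions (Slc22) between cell and blood. Other members of the same families serve the cell itself. Slc12 cotransporters and carriers of taurine, betaine and myo-inositol set cell volume and the load of organic osmolytes, and some Slc9 and Slc17 members work in endosomes, lysosomes and secretory vesicles.

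Gene counts per library lay between 15870155 and 20857618, each gene being represented by its transcript with the highest total. Values below are TMM-normalized counts for a library of 17351835 counts, given as mean ± SD over 3 libraries, unless they are said to be levels per kilobase, which are normalized counts per kilobase of transcript and per 1000000 counts and are used wherever genes are compared with each other. Called means that edgeR's quasi-likelihood test over 12971 genes gave a Benjamini-Hochberg adjusted p under 0.05, with a fold change of at least 1.5. The study's methods speak in general of independent experiments or biological replicates for work in culture, and the labels do not say whether the libraries of a group came from separate cultures, so p values measure only the spread between these libraries. Libraries of the untreated TβRII flox/flox group differed most among themselves, with a chi-square per gene between 6.46 and 12.3 for a pair, against 3.60 to 5.51 in the other groups. Tgfbr2 was counted in every library, with normalized counts between 6358 and 6782 in untreated TβRII-/- PT cells and between 7562 and 9248 in untreated TβRII flox/flox PT cells. Among proximal tubule markers other than carriers, Lrp2, Aqp1 and Mme were abundant, while Hnf4a, Kap, Miox, Pck1 and Fbp1 had a mean of at most 0.877 normalized counts in any group. Epithelial genes differed between the lines: Epcam had a mean of 0.371 in untreated TβRII flox/flox and 664 in untreated TβRII-/- PT cells, and Cdh1 1.80 and 1111. In bulk RNA, fewer cells that express a gene and less RNA per cell cannot be told apart.

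Most carriers of these families were absent or rare in the cultured cells. Of the 119 members, 27 had no count in any library, 26 more had at most 3 counts in their highest library, and 17 others had up to 24 but were too low for the edgeR filter, which left 49 members tested. Slc22, the largest family, had 6 of its 26 members tested and 17 with at most 3 counts in any library, whereas 7 of 9 Slc12 members and 7 of 11 Slc4 members were tested. No member of Slc13 or Slc47 was tested.

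The summed level of the members was dominated by 1 gene, Slc6a6, the taurine transporter (chr6:91684048-91759063 on GRCm38.p6). Its level per kilobase was 526 ± 60.4 in TβRII flox/flox PT cells without treatment. There, the next highest member, the potassium-chloride cotransporter Slc12a4, had 128 ± 13.6. Slc6a6 alone held between 50.6% and 51.5% of the members' summed level per kilobase in untreated TβRII flox/flox libraries. In H2O2-treated TβRII-/- libraries it held between 32.1% and 32.4%. The orphan carrier Slc22a23 followed in the untreated TβRII flox/flox group at 70.1 ± 6.30, before the chloride-bicarbonate exchanger Slc4a2 at 46.5 ± 3.77 and the potassium-chloride cotransporter Slc12a7 at 30.8 ± 4.27. At ranks 7 to 9, Slc12a2, Slc6a8 and Slc9a5 lay between 21.5 and 24.5 and were not separated by more than their SD of up to 3.62. The order was different in untreated TβRII-/- PT cells, where Slc4a11 moved from rank 10 to rank 2 and its level of 65.5 ± 3.76 per kilobase was level with the 65.2 ± 3.39 of Slc12a4. Slc6a6 was first in all 4 groups.

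Of the other families, the highest member of Slc5 per kilobase was Slc5a3, the sodium-myo-inositol cotransporter, at 11.3 ± 0.96 in untreated TβRII flox/flox PT cells. That of Slc17 was Slc17a5, the lysosomal sialic acid carrier, at 5.58 ± 0.553. In Slc26, the sulfate transporter Slc26a2 at 2.91 ± 0.219 and the anion carrier Slc26a11 at 2.51 ± 0.41 were not separated by more than their SD, and Slc26a11 was the higher of the pair in both TβRII-/- groups. In the families Slc13 and Slc47 the highest means in any group were 3.86 normalized counts, for Slc13a4, and 12.4, for Slc47a1. Slc34a2, a sodium-phosphate cotransporter, led the Slc34 family only through TβRII-/- PT cells, and is described below.

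**Figure D1:**
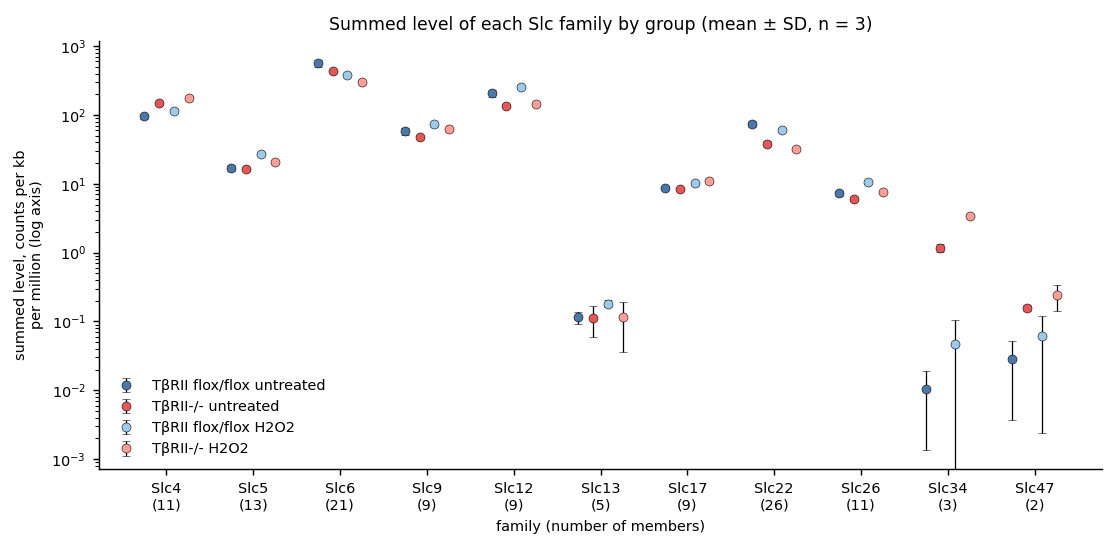
Summed level of each Slc family in the 4 groups, as normalized counts per kilobase of transcript and per 1000000 counts on a log axis, with points for the mean and bars for the SD of 3 libraries. Slc6 had the highest sum in every group, between 302 and 561, and Slc13, Slc34 and Slc47 the lowest.

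Carriers that mark the proximal tubule in the kidney were for the most part too low to test. Of 30 such members, 8 had no count in any library. Among these were the sodium-phosphate cotransporter Slc34a3, the sodium-dicarboxylate cotransporter Slc13a3, the sodium-proton exchanger Slc9a3, and the organic ion carriers Slc22a6, Slc22a12, Slc22a19 and Slc22a30. A further 7 never passed 3 counts in a library, among them the phosphate cotransporter Slc34a1 and the organic anion transporter Slc22a8. All 9 Slc22 members on the list were in one of these conditions. Only 9 of the 30 could be tested: Slc4a4, Slc5a2, Slc5a8, Slc5a12, Slc6a18, Slc6a19, Slc6a20a, Slc17a1 and Slc26a6. Between the genotypes without treatment, 3 of the 9 were called higher in TβRII-/- PT cells and 3 lower, where 16.3% and 11.8% of all genes tested were. Slc6a20a passed the filter on low counts only through TβRII-/- libraries and could only be called higher. Slc5a2 passed it only through TβRII flox/flox libraries and could only be called lower. With no filter on low counts, Slc5a1, Slc6a20b and Slc47a1 of the list were called higher as well.

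**Figure D2:**
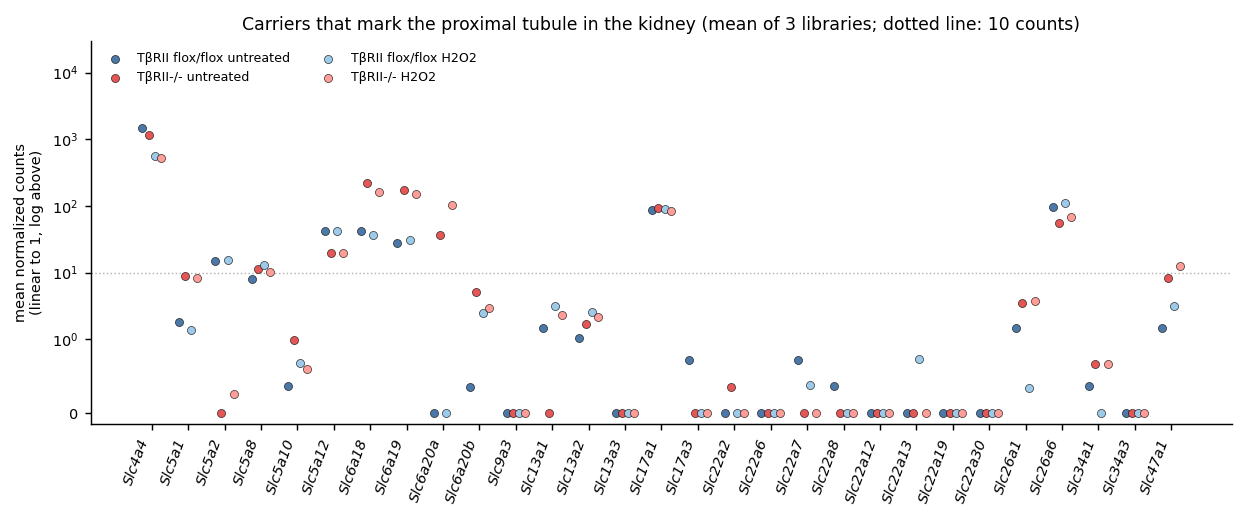
Mean normalized counts of 29 carriers that mark the proximal tubule in the kidney, in the 4 groups of 3 libraries, on an axis that is linear to 1 and logarithmic above. Slc4a4 stood highest, with between 515 and 1488, and 7 of the carriers shown were at 0 in every group.

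The most abundant of these was Slc4a4, the basolateral sodium-bicarbonate cotransporter (chr5:88793858-89239656), with 1624, 1364 and 1474 normalized counts in the untreated TβRII flox/flox libraries and 1193, 1135 and 1129 in the untreated TβRII-/- libraries. The groups did not overlap, and the difference of -0.37 on the log2 scale (SE 0.07) was below the 1.5-fold limit. Slc17a1, an organic anion and phosphate carrier, was level across the groups at 88.2 ± 4.59, 91.4 ± 7.93, 89.3 ± 10.3 and 84.96 ± 2.13 in untreated TβRII flox/flox, untreated TβRII-/-, H2O2-treated TβRII flox/flox and H2O2-treated TβRII-/- PT cells. Of 7 carriers on the list for later nephron segments, only Slc26a11 could be tested, with means between 120.1 and 192 normalized counts over the 4 groups. Slc12a1 of the thick limb, Slc12a3 of the distal convoluted tubule, and Slc4a9, Slc26a4 and Slc26a7 had means of at most 1.80 normalized counts in every group. Slc4a1, the anion exchanger of red cells and intercalated cells, was not tested but had 0, 0 and 0 counts in the H2O2-treated TβRII flox/flox libraries and 49 counts in all in the 3 H2O2-treated TβRII-/- libraries, at least 4.74-fold higher when 3 counts per library stand for 0.

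The first comparison asks how the carriers differ between the lines before any stress. Of the 49 members tested, 16 were called higher and 12 lower in untreated TβRII-/- PT cells than in untreated TβRII flox/flox PT cells. Over all genes tested, 16.3% were called higher and 11.8% lower. With at least 10 counts required in every library, which leaves out members near 0 in either line, 10 were called higher and 8 lower. The median log2 difference was 0.05 over the tested members and 0.01 over all genes tested. Among the families, Slc6 had 7 of 9 tested members called higher and none lower. Of the 7, Slc6a12, Slc6a13 and Slc6a20a passed the filter on low counts only through TβRII-/- libraries and so could be called in that direction alone. Slc9 had 2 of 5 called lower, Slc9a9 among them, and none higher. Slc34a2, Slc17a4 and Slc22a14 also passed the filter only through TβRII-/- libraries, and so could only be called higher. Slc5a2, Slc9a9 and Slc17a9 passed it only through TβRII flox/flox libraries, and so could only be called lower.

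The rises included the 3 carriers of neutral and imino acids on the proximal tubule list that could be tested. Slc6a19, the neutral amino acid transporter B0AT1, had 22.1, 34.5 and 27.96 normalized counts in the untreated TβRII flox/flox libraries and 183, 167 and 172 in the untreated TβRII-/- libraries. All 3 TβRII-/- libraries stood far above the highest TβRII flox/flox library, and the log2 difference was 2.63 (SE 0.19, adjusted p = 8.23e-14). Its neighbour on chromosome 13, Slc6a18, a carrier of glycine and other neutral amino acids, had 48.4, 43.4 and 33.3 and 219.6, 225 and 220.2, a log2 difference of 2.40 (adjusted p = 5.5e-15). The 20 tested genes nearest to either gene had a median log2 difference of -0.29, in the opposite direction.

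Slc6a20a, the transporter of proline and other imino acids, had no count in any of the 6 TβRII flox/flox libraries and 37.6, 29.04 and 43.1 normalized counts in the untreated TβRII-/- libraries. With 3 counts per library standing for 0, this is at least 11.3-fold higher, and the adjusted p was 1.44e-10. Slc6a20b, a near copy of it with which reads could be shared, was too low to test, with 1 count in all in the untreated TβRII flox/flox libraries and 16 in the untreated TβRII-/- libraries. Slc6a17, a vesicular neutral amino acid carrier best known in neurons, had 22.1, 30.05 and 29.04 and 345, 329 and 339, without overlap and with a log2 difference of 3.64 (SE 0.15, adjusted p = 7.14e-20). The glycine transporter Slc6a9 rose by 0.62 on the log2 scale, from 593 ± 114 to 913 ± 39.9. Its call was lost without replicate 3 of the untreated TβRII flox/flox group.

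Carriers of betaine and GABA, which lie next to each other on chromosome 6, were also read almost only in TβRII-/- PT cells. Slc6a12, the betaine transporter BGT1 and an osmolyte carrier, had no count in the untreated TβRII flox/flox libraries and 37.6, 26.1 and 27.8 normalized counts in the untreated TβRII-/- libraries, at least 9.42-fold higher. Slc6a13, the GABA transporter GAT2, had 2 counts in all in the first group and 88 in the other, a ratio of 40.3 with an exact 95% interval of 10.8 to 338 for counting error only. The 20 nearest tested genes had a median log2 difference of -0.18 for both.

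Slc34a2, the sodium-phosphate cotransporter NaPi-IIb of lung and intestine, had 0, 0 and 1.08 normalized counts in the untreated TβRII flox/flox libraries and 74.2, 83.3 and 98.6 in the untreated TβRII-/- libraries. The 1 and 260 counts behind these values give a ratio of 238 (exact 95% interval 42.4 to 9443), and the adjusted p was 3.65e-14. Its 20 nearest tested genes had a median log2 difference of 0.56, in the same direction. The tubular Slc34a1 and Slc34a3 stayed at or near 0 in the same libraries.

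In the bicarbonate family, Slc4a11, a member that carries protons (GRCm38.p6 chr2:130684107-130697519), had 1014, 805 and 790.4 normalized counts in the untreated TβRII flox/flox libraries and 3699, 3409 and 3814 in the untreated TβRII-/- libraries, a log2 difference of 2.06 (SE 0.09, adjusted p = 3.62e-20). The 20 tested genes nearest to it had a median difference of 0.40, in the same direction. Slc4a8, a sodium-driven chloride-bicarbonate exchanger, was higher by 1.498 on the log2 scale, at 259.9 ± 25.2 and 735 ± 61.6, and its 20 neighbours had a median of 0.88, also higher. The carnitine and ergothioneine carrier Slc22a4 had 18.9, 13.4 and 13.98 and 134, 107 and 101, with a log2 difference of 2.87 (adjusted p = 7.11e-13). Slc22a5, the main carnitine carrier of the cluster that it shares with Slc22a4 and Slc22a21 on chromosome 11, differed by 0.26 and was not called, and nor was Slc22a21.

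The other members called higher were Slc17a4, a phosphate and organic anion carrier, Slc26a10, Slc12a8, Slc22a15 and Slc22a14, with log2 differences of 2.54, 1.499, 1.31, 0.86 and 1.43. Slc17a4 and Slc22a14 rested on means of at most 12.9 and 10.9 normalized counts in these 2 groups, and the Slc22a14 call was lost without replicate 2 of either untreated group.

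Several falls were in abundant carriers. Slc22a23 (chr13:34179158-34345275) had 9021, 7998 and 7591 normalized counts in the untreated TβRII flox/flox libraries and 4001, 3604 and 3355 in the untreated TβRII-/- libraries, a log2 difference of -1.17 (SE 0.07, adjusted p = 5.04e-16). Slc12a4, the potassium-chloride cotransporter KCC1, which lets a swollen cell lose salt, fell from 9323, 8809.9 and 7548 to 4494, 4518 and 4112, a log2 difference of -0.97 (SE 0.07, adjusted p = 1.73e-13). The 20 tested genes nearest to Slc12a4 had a median difference of -0.62, in the same direction.

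The families Slc4 and Slc26 moved in both directions, with 2 of 7 tested members called higher and 2 lower in Slc4, and 1 of 4 higher and 2 lower in Slc26. The anion exchanger Slc4a3 differed by -1.03, from 600.2 ± 48.7 to 295 ± 12.2, and the sodium-bicarbonate cotransporter Slc4a7 by -0.83, from 934 ± 79.7 to 524 ± 16.2. Slc26a2, which supplies sulfate for the making of proteoglycans, differed by -0.99, and Slc26a6, an apical exchanger of chloride for oxalate and other anions, by -0.78.

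At lower levels, the glucose cotransporter Slc5a2 (SGLT2), a defining carrier of the early proximal tubule, had 18.9, 18.9 and 6.45 normalized counts in the untreated TβRII flox/flox libraries and none in the untreated TβRII-/- libraries, at least 4.97-fold lower. Slc5a12, a lactate carrier, fell from 38.9, 33.4 and 52.7 to 19.9, 19.4 and 20.1, a log2 difference of -1.07 (adjusted p = 0.00097). The glucose carrier Slc5a1 was too low to test, at 1.81 ± 0.657 and 8.94 ± 1.41. Slc9a9, an endosomal sodium-proton exchanger, had 36 counts in all in the first group and 1 in the other, a ratio of 39.3 (exact 95% interval 6.62 to 1595). The vesicular nucleotide transporter Slc17a9 and the neuronal potassium-chloride cotransporter Slc12a5 had means of 13.98 ± 3.38 and 21.2 ± 6.44 in untreated TβRII flox/flox PT cells, against 1.63 ± 0.508 and 9.04 ± 6.08. The Slc12a5 call was lost without replicate 1 of either untreated group.

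**Figure D3:**
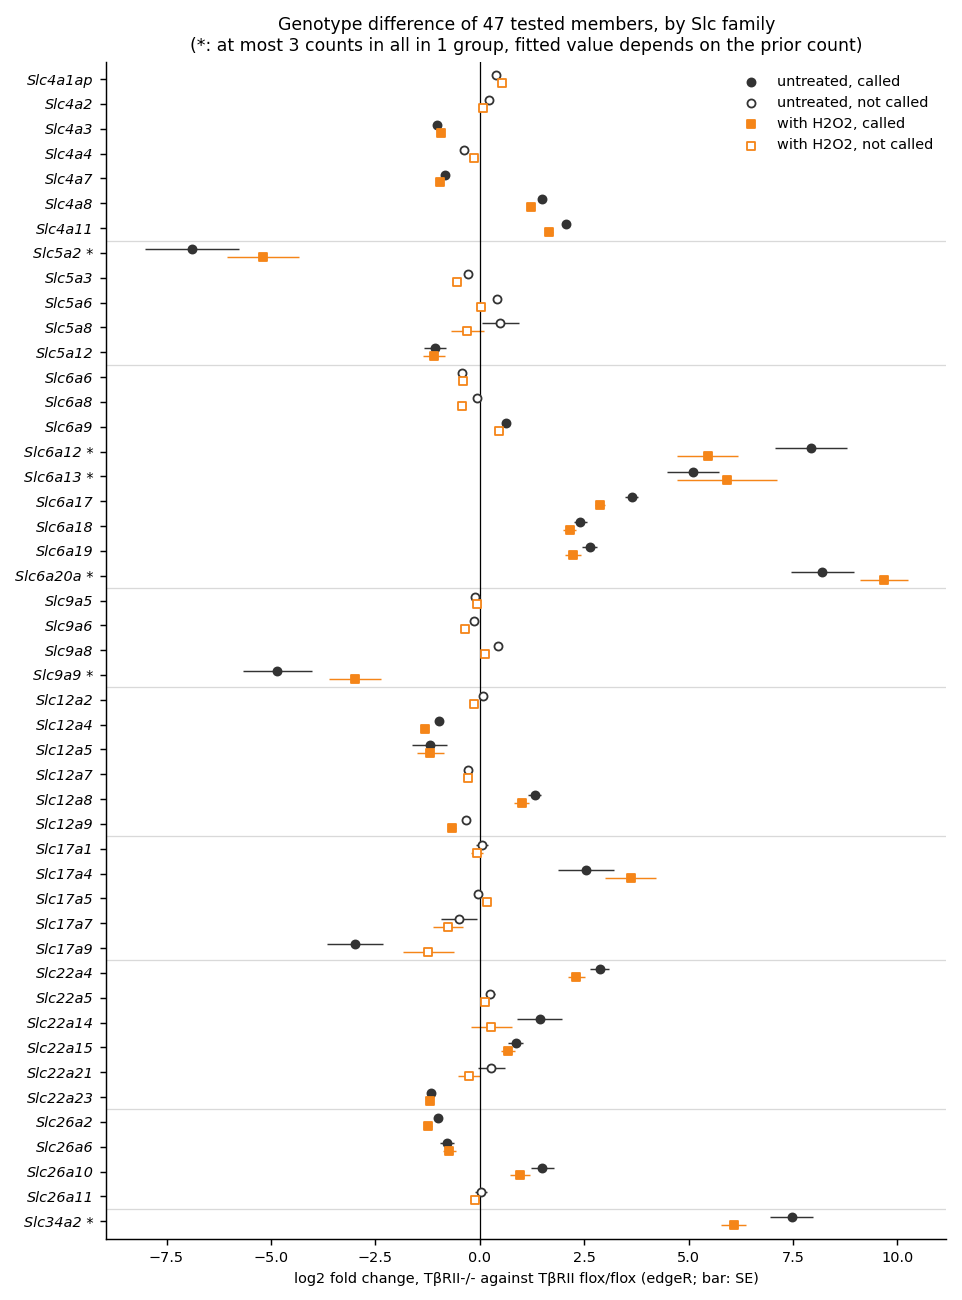
Log2 difference of TβRII-/- from TβRII flox/flox PT cells for 47 of the 49 tested members, by family, untreated (circles) and with H2O2 (squares), with bars for the SE and filled symbols for called members. Slc6a12, Slc6a13, Slc6a17, Slc6a18, Slc6a19, Slc6a20a, Slc17a4, Slc22a4 and Slc34a2 lay at 2.15 or above in both conditions. The fitted values marked with a star rest on a group with at most 3 counts in all.

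With H2O2, 14 of the 49 members were called higher and 11 lower in TβRII-/- PT cells, where all genes tested gave 17.3% and 13.4%. The libraries of this comparison are not those of the untreated one. How many calls the 2 comparisons shared over all genes tested was not computed, so whether the overlaps below are particular to the carriers is not known. All 14 members called higher with H2O2 were also called higher without it, which is 87.5% of the 16. Of the 11 called lower, 10 were shared, 83.3% of the 12 called lower without treatment, and no member was called in opposite directions. The exception was Slc12a9, an orphan Slc12 member, which was called lower only with H2O2, at -0.66 against -0.34 without it; its difference of these 2 values was not called (adjusted p = 0.13). For some shared calls the direction was fixed by the filter on low counts, as described above. Slc6a12, Slc6a13, Slc6a20a, Slc34a2 and Slc17a4 could only be called higher, and Slc5a2 and Slc9a9 only lower. With at least 10 counts required in every library, 9 members were called higher and 8 lower with H2O2. Slc6a20a had no count with H2O2 in TβRII flox/flox PT cells but 101, 103 and 104 normalized counts in TβRII-/- PT cells, at least 32.2-fold higher. Slc6a19 and Slc6a18 differed by 2.23 and 2.15, and Slc22a23 by -1.18.

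Epithelial marker genes moved with the genotype in the same libraries. Of 6 such markers, 4 were called higher in untreated TβRII-/- PT cells and none lower, where 16.3% and 11.8% of all genes tested were. Their summed level per kilobase was between 232 and 240 in untreated TβRII flox/flox and between 497 and 504 in untreated TβRII-/- libraries. Of 21 proximal tubule markers only 8 could be tested, and 4 had no count in any library. The tested ones went the other way, with 7 of 8, Slc5a2 and Slc5a12 among them, called lower and none higher. The summed level of the list was between 251 and 302 against 162 and 173. The tubule carriers Slc6a18, Slc6a19 and Slc6a20a, which are not on this marker list, were called higher. Markers of other cell types were few. Ptger3 of the thick limb, Trpm6 of the distal convoluted tubule, Scnn1g of the collecting duct, Podxl of podocytes, Kdr of endothelium and Cd68 of leukocytes were the tested markers called higher in untreated TβRII-/- PT cells, by 3.52, 2.40, 1.06, 3.83, 1.97 and 0.78 on the log2 scale. Of 2 tested podocyte markers, the other was called in neither direction, and the median log2 difference of both was 1.79. Of fibroblast markers Dcn was called higher, by 1.87, and Pdgfrb and Col1a1 lower, at -2.74 and -1.56. The defining markers Cldn16, Aqp2, Foxi1, Nphs1, Lum and Cd3e had no count in any library. The part of any of these in the carriers' differences was not tested.

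Promoter sequences are shown for the members with the largest genotype differences, since TGF-β signals reach genes through Smad proteins, which bind CAGAC, and through repressors of the Snail and Zeb families, which bind the E-box CACCTG. RefSeq windows on GRCm38.p6, from 250 bases before to 50 bases after the annotated start, matched 89 of the 119 members. Of these, 51 began within 100 bases of the start of the counted transcript. Both motifs were searched on both strands, in 32544 windows of this length. CACCTG was present in 20.3% of all windows and in 20 of the 51, and CAGAC in 49.5% of all windows and in 26 of the 51. Of the 8 members in this set that were called higher in untreated TβRII-/- PT cells, 4 held CACCTG and 4 CAGAC; of the 3 called lower, 1 and 2 did. The sequences below run 5′ to 3′ on the gene's strand, for the 4 members of this set that rose most and the 2 that fell most. Capitals mark CACCTG or its reverse complement CAGGTG, and CAGAC or its reverse complement GTCTG.
Slc6a20a (chr9:123678783-123679082, minus strand): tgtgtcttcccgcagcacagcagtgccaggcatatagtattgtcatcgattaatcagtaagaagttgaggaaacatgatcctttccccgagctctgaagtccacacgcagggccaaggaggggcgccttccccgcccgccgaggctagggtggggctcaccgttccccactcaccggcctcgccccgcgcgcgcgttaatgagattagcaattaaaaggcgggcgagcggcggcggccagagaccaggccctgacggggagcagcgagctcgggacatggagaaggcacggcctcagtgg
Slc34a2 (chr5:53049103-53049402, plus strand): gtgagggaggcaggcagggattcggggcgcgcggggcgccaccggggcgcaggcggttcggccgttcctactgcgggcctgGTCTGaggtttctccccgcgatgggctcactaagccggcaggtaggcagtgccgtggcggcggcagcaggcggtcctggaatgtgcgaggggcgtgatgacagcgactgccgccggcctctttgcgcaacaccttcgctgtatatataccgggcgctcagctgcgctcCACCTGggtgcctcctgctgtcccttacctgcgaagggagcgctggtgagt
Slc6a13 (chr6:121300038-121300337, plus strand): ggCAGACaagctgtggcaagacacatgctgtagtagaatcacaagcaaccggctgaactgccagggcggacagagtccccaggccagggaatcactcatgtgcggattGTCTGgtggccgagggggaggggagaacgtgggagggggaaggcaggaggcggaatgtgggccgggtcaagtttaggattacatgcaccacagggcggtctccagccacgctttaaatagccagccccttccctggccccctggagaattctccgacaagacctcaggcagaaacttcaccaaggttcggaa
Slc6a17 (chr3:107517969-107518268, minus strand): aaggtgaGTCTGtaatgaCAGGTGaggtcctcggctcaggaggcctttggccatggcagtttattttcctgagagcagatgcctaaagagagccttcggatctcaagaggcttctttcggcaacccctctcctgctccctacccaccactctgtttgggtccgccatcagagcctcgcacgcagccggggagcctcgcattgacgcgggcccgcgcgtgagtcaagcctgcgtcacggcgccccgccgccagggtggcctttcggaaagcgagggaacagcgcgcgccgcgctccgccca
Slc12a5 (chr2:164967738-164968037, plus strand): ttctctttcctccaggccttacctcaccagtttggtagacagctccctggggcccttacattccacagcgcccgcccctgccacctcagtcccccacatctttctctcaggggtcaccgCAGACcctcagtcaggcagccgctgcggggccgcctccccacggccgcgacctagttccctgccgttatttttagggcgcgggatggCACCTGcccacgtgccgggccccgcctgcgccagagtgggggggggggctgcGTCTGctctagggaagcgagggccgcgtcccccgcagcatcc
Slc9a9 (chr9:94669642-94669941, plus strand): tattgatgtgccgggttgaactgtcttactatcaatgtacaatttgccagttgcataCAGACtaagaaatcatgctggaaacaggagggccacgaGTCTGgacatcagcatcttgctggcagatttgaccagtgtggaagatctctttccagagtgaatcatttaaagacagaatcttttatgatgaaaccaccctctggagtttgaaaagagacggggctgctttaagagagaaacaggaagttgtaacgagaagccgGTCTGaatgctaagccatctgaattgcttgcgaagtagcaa
The first 4 rose in TβRII-/- PT cells and the last 2 fell. The window of Slc34a2 holds CACCTG with its first base directly before the annotated start, at position -1, and 1 CAGAC on the reverse strand. That of Slc6a17 holds CACCTG on the reverse strand, with its first base at -232, and 1 CAGAC. Slc12a5, which fell, also holds CACCTG, from -44, and 2 CAGAC. No copy of either motif is in the window of Slc6a20a. Slc6a13 has 2 copies of CAGAC and no CACCTG, and Slc9a9 has 3 and none. A match describes letters and is not a bound site.

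The next comparison asks what H2O2 in serum-free medium did to the carriers in each line. In TβRII flox/flox PT cells 8 of the 49 members were called higher and 2 lower, against 5.68% and 2.56% of all genes tested. In TβRII-/- PT cells 2 were called higher and 4 lower, against 4.56% and 3.76%. The median log2 change was 0.34 over the members and 0.01 over all genes in TβRII flox/flox PT cells. The medians were 0.23 and 0.02 in TβRII-/- PT cells. Small rises were frequent: with an adjusted p under 0.05 and no limit on the fold change, 26 of the 49 were higher and 4 lower in TβRII flox/flox PT cells, where 21.0% and 20.5% of all genes were. In TβRII-/- PT cells the counts were 18 and 6, where 20.5% and 19.1% of all genes were.

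The 2 falls called in TβRII flox/flox PT cells were also called in TβRII-/- PT cells. Slc4a4 fell from the untreated values given above to 525, 537 and 637 normalized counts in TβRII flox/flox libraries and to 471, 552 and 523 in TβRII-/- libraries. No treated library overlapped an untreated one, and the log2 changes were -1.40 (SE 0.08, adjusted p = 1.39e-15) and -1.16 (SE 0.08, adjusted p = 1.74e-13). Their difference was 0.24 with an adjusted p of 0.176, which did not pass.

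Slc6a6 had 62755, 56734 and 49790.0 normalized counts in untreated and 34340.3, 35059.8 and 34599.8 in H2O2-treated TβRII flox/flox libraries. In TβRII-/- libraries it had 42328, 41654 and 41440.1 untreated and 25866, 25338 and 27356 with H2O2. The 4 groups did not overlap and stood, from high to low, in the order untreated TβRII flox/flox, untreated TβRII-/-, treated TβRII flox/flox and treated TβRII-/-. Its change with H2O2 was -0.70 in TβRII flox/flox (adjusted p = 4.87e-09) and -0.67 in TβRII-/- PT cells (adjusted p = 1.22e-08), and the genotype difference was under the 1.5-fold limit in both conditions. Called lower in TβRII-/- PT cells alone were Slc6a13, from 25.1, 30.98 and 30.6 to 7.38, 8.65 and 5.97, and Slc12a8, from 164 ± 26.03 to 94.8 ± 13.9. The H2O2 effect did not pass the test of a difference between lines for either (adjusted p = 0.654 and 0.49).

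Among the rises, Slc5a3, which brings in the osmolyte myo-inositol, had 2373, 2169 and 2002 normalized counts in untreated and 3788, 3992 and 3899.9 in treated TβRII flox/flox libraries, a change of 0.84 on the log2 scale (SE 0.06, adjusted p = 1.11e-12). In TβRII-/- libraries it had 1871, 1790.1 and 1747 and 2689.8, 2592 and 2708, a change of 0.56 that was just under the fold limit. Reads of Slc5a3 cannot be fully told apart from those of Mrps6, which overlaps it on the same strand. Slc6a8, the creatine transporter, had 1681, 1764 and 1597 and 2537, 2459 and 2648 in TβRII flox/flox libraries, a change of 0.60 (adjusted p = 3.43e-09), and it fell under the fold limit without replicate 3 of either TβRII flox/flox group. The carnitine carrier Slc22a21 changed by 1.004, from 16.5 ± 3.37 to 33.5 ± 7.97, and Slc26a11 by 0.69, from 120.1 ± 19.6 to 192 ± 35.9. Slc26a11 fell under the fold limit, at 0.58 and 0.56, without replicate 3 of the untreated or replicate 2 of the treated TβRII flox/flox group.

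Slc34a2 and Slc6a20a rose further in TβRII-/- PT cells. Slc34a2 went from 74.2, 83.3 and 98.6 to 260.3, 246 and 234 normalized counts, a log2 change of 1.53 (SE 0.16, adjusted p = 4.11e-09). Slc6a20a went from 37.6, 29.04 and 43.1 to 101, 103 and 104, a change of 1.49 (SE 0.20, adjusted p = 1.25e-06). The treated libraries lay above every untreated one for both genes. In TβRII flox/flox PT cells Slc34a2 rested on 1 count untreated and 10 with H2O2, a ratio of 9.83 (exact 95% interval 1.40 to 427), and its call there (adjusted p = 0.043) was lost without replicate 1 or 2 of the untreated group or replicate 1 of the treated group. Slc12a5 was called higher in TβRII flox/flox PT cells with an adjusted p of 0.0369, from 26.3, 23.4 and 13.98 to 50.7, 33.1 and 29.8, and DESeq2 did not call it. The call was also lost without replicate 2 or 3 of the untreated group or replicate 1 of the treated group, at adjusted p between 0.0604 and 0.228 in edgeR.

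**Figure D4:**
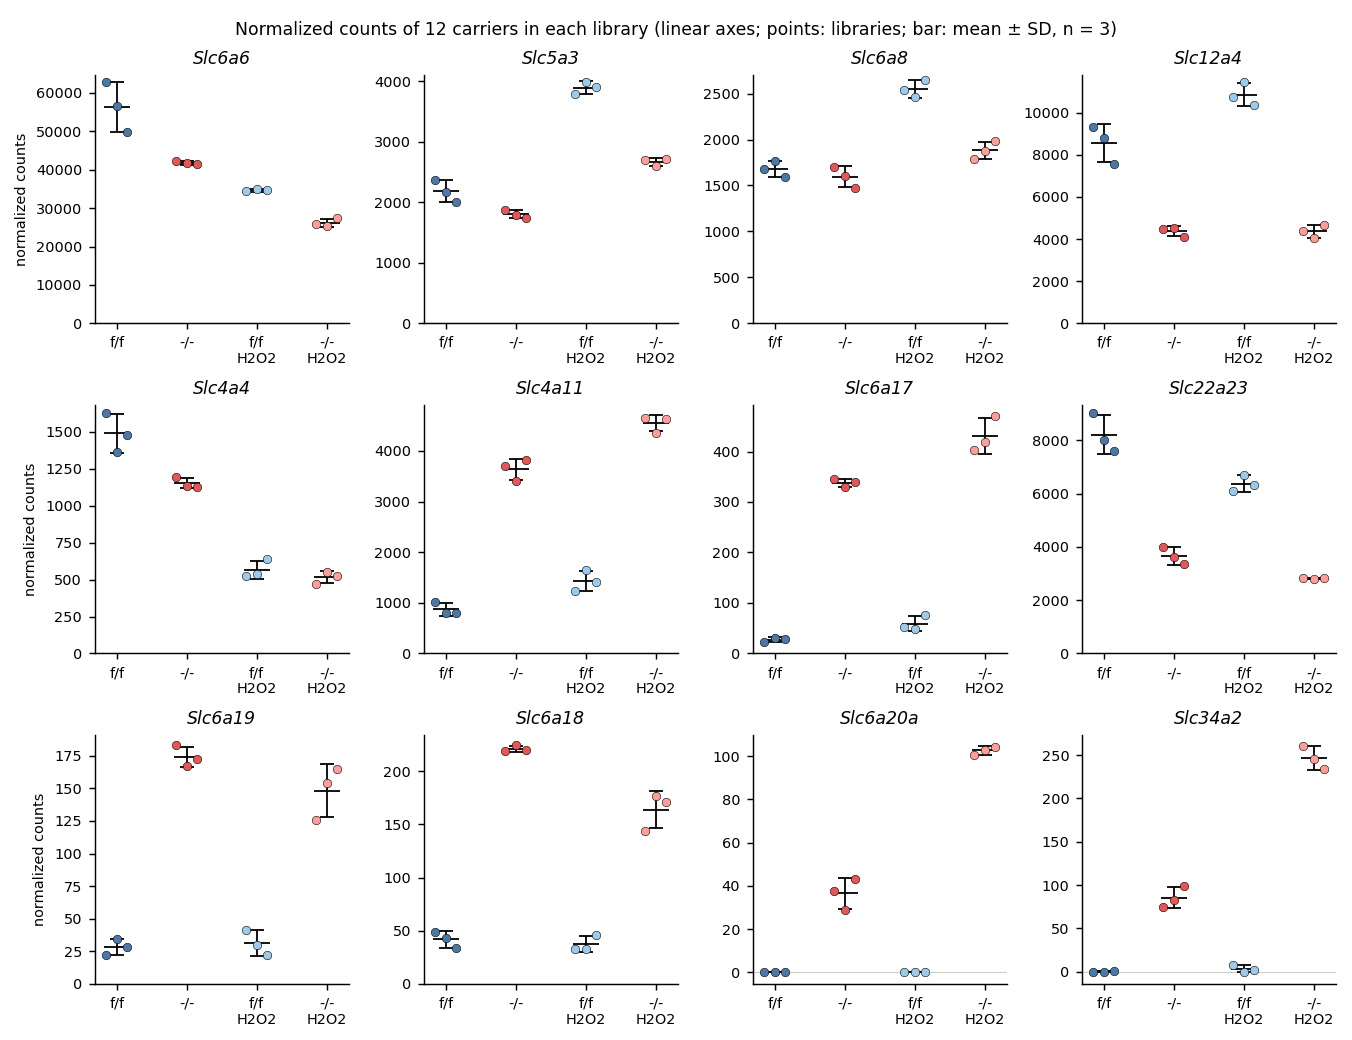
Normalized counts of 12 members in each library, on linear axes from 0, by genotype (f/f for TβRII flox/flox, -/- for TβRII-/-) and treatment, with bars for mean ± SD of 3 libraries. Slc6a6 and Slc4a4 were lower with H2O2 in both lines, and Slc6a20a and Slc34a2 were at or near 0 in TβRII flox/flox libraries.

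The last comparison tests whether the H2O2 effect differed between the lines. Here called means an adjusted p under 0.05 with no limit on the fold change. A difference was called for 5 of the 49 members, a share close to the 10.2% of all genes tested. In all 5 the change was lower in TβRII-/- PT cells, the direction called for 6.28% of all genes. The median difference of the H2O2 effects was -0.15 over the members and 0.01 over all genes. Slc6a17 had 52.8, 48.5 and 75.6 normalized counts in treated TβRII flox/flox and 402, 418 and 470.4 in treated TβRII-/- libraries, so it changed by 1.11 and by 0.35 on the log2 scale, a difference of -0.76 (SE 0.23, adjusted p = 0.031). Slc4a11 had 1239, 1644 and 1421 and 4649.5, 4361 and 4641, changes of 0.72 and 0.32, and a difference of -0.40 (adjusted p = 0.0239). Both genes were far higher in TβRII-/- PT cells before treatment.

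Slc6a8 had 1702, 1600.3 and 1474 normalized counts in untreated and 1791, 1878 and 1979.9 in treated TβRII-/- libraries, a change of 0.24 where TβRII flox/flox PT cells had 0.60, and the difference was -0.36 (adjusted p = 0.00756). Slc12a4 changed by 0.34 to 10739, 11442 and 10375 in TβRII flox/flox libraries and stood at 4367, 4059 and 4659 in treated TβRII-/- libraries, where its level did not differ beyond the spread from the untreated libraries, and the difference was -0.35 (adjusted p = 0.0234). For Slc5a3 it was -0.27 (adjusted p = 0.0384). At the same limit, Slc6a8 kept its call in every alternative fit and without each library in turn. Of 19 such fits, Slc5a3 lost its call in 9, and Slc12a4, Slc4a11 and Slc6a17 in 5 each. Most of these losses came without single libraries, at adjusted p between 0.0515 and 0.130.

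**Figure D5:**
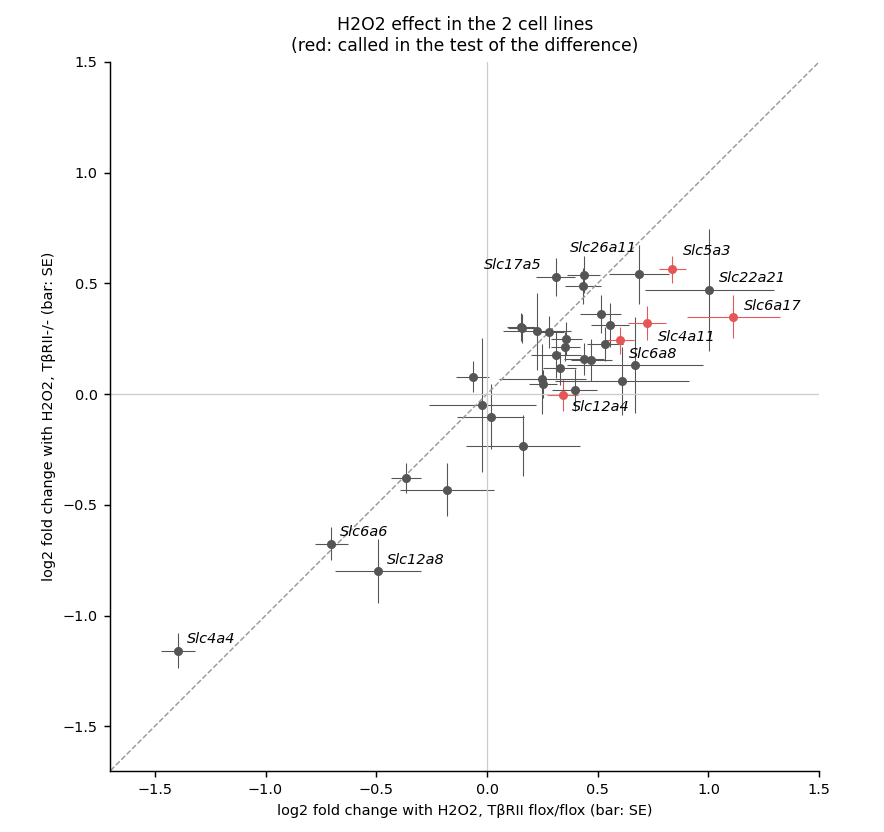
Log2 change with H2O2 in TβRII flox/flox (horizontal) against TβRII-/- PT cells (vertical) for the 37 members with a mean of at least 10 normalized counts in all 4 groups, with bars for the SE and red for the 5 members called in the test of the difference. Slc4a4 and Slc6a6 were lower in both lines, and the red points lie under the dashed line of equal change.

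The carriers that regulate cell volume and organic osmolytes were tested in full, all 8 of them. Without treatment, 1 of them, Slc6a12, was called higher and 2, Slc12a4 among them, lower in TβRII-/- PT cells, and the median of the 8 was -0.36. The shares over all genes were 16.3% and 11.8% here and for the partners below. Slc12a7 differed by -0.29, under the fold limit, and Slc12a2, the sodium-potassium-chloride cotransporter NKCC1, by 0.08. Of 13 tested partners and regulators of these carriers, 3 were called higher and 3 lower. Nfat5, the factor that raises osmolyte carriers in hypertonic cells, differed by -1.06 on the log2 scale, at a mean of 15326.5 normalized counts in TβRII flox/flox and 7363 in TβRII-/- PT cells. Sgk1, a kinase that regulates several carriers, had means of 679 and 1342 without and 179 and 165 with H2O2, and was called lower with H2O2 in both lines.

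The sodium pump, whose gradient drives most of these carriers, had 3 of 7 tested genes called higher and none lower without treatment, where all genes gave 16.3% and 11.8%. With H2O2 the counts were 4 higher and 3 lower (Atp1b2, Atp1b3 and Fxyd5), against 17.3% and 13.4%. Its β1 subunit Atp1b1 averaged 3247 normalized counts in TβRII flox/flox and 7552 in TβRII-/- PT cells. Its small regulator Fxyd2 had 0.371 and 40.2. In the untreated comparison, to which the same shares of 16.3% and 11.8% belong, the other lists moved as follows. Of 6 tested carbonic anhydrases, which supply bicarbonate carriers, 3 were called higher and none lower, with Car2 at 1358 and 3647 and Car12 at 48.95 and 263. Among 8 tested apical scaffolds and chaperones, 2 were called higher and 1 lower, with Nherf1 at 2263 and 3622. Cltrn, which carries Slc6a19 and its relatives to the membrane, was too low to test, with a mean of at most 3.65. Of 7 tested tubule transcription factors, Lhx1 and Cux1 were called lower and none higher.

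For some members the counted transcript was not a coding one. The transcript with the highest count was annotated as a retained intron or as subject to nonsense-mediated decay for Slc4a3, Slc6a19, Slc9a5, Slc12a7, Slc17a4, Slc22a17, Slc26a6, Slc26a10 and Slc47a1. Their highest coding transcript held between 71.3% and 99.3% as many counts, and with coding transcripts in their place the members called were the same in all 5 comparisons.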

How the data were processed

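RNA was measured in 12 libraries of PT cells, and groups and replicate numbers came from the labels. The authors trimmed reads with fastp, used STAR and the GENCODE M23 annotation of GRCm38.p6 for alignment, and counted with featureCounts; versions are not given in the sources used here. They deposited whole-number counts per transcript, without normalization, in which a read is counted on each transcript it overlaps. Of 106332 transcripts, 104820 were matched by Ensembl identifier to GENCODE M39, and the other 1512, with at most 1.28% of a library's counts, were left out. The tests had been written for gene counts, so each gene was represented by its transcript with the highest total. Genes with shared or overlapping reads are uncertain, since how featureCounts was set for them is not given in the sources used here.

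Counts were normalized by TMM and tested in edgeR 4.0.16 (R 4.3.3) with filterByExpr, glmQLFit and glmQLFTest, on a mean per group over all 12 libraries. The 4 pairwise comparisons were called at a Benjamini-Hochberg adjusted p under 0.05 and a fold change of at least 1.5, and the difference of H2O2 effects at the adjusted p alone. Fits were tested on simulated counts. Intervals and lower bounds, with 3 counts per library in place of 0, cover counting error only; no molecular identifiers were used. Alternatives were DESeq2 1.42.0, its size factors in edgeR, other filters on low counts, a replicate block, only the groups compared, sums over transcripts, other limits and each library left out; coding transcripts were added after seeing the data. Members, gene lists and tests were chosen with earlier results of these data known. Named were the highest member per family over the 4 groups, up to 8 rises and 8 falls per comparison with a mean of at least 10, all members called for a difference of effects, and the lists of tubule carriers. Marker lists for proximal tubule and epithelium are given in the text. Those of thick limb, distal convoluted tubule, collecting duct, podocyte, endothelium, fibroblast and leukocyte had at most 3 tested genes each. The ones called in the untreated comparison are named there too, and none of the intercalated list was tested. Values of a few genes are not reported here.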

Additional observations from a re-analysis of the deposited data

Results flagged for a closer look

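In 5 members the H2O2 effect differed between the cell lines in edgeR's test of the difference itself (adjusted p under 0.05), each with the lower change in TβRII-/- PT cells. On the log2 scale, the effect in TβRII-/- minus that in TβRII flox/flox PT cells was -0.76 for Slc6a17, -0.40 for Slc4a11, -0.36 for Slc6a8, -0.35 for Slc12a4 and -0.27 for Slc5a3. These 5 are 10.2% of the 49 members tested, and 10.2% of all genes tested passed the same limit. Only Slc6a8 kept its call in all 19 alternative fits, and Slc5a3 lost it in 9 of them. Slc6a17 and Slc4a11 were higher in TβRII-/- PT cells before treatment, and Slc12a4 and Slc5a3 were lower. With 3 libraries in a group, single libraries were not screened for values far from the others. Untreated TβRII flox/flox libraries differed most among themselves, and without replicate 1 of that group 9 members passed in place of 5.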

How the results depend on the processing

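A minimum of 10 counts in all 12 libraries leaves out members near 0 in 1 line; then 10 members were called higher in TβRII-/- PT cells untreated and 9 with H2O2, and 0 were called higher with H2O2 in TβRII-/- PT cells. With no limit on the fold change, 18 were lower in TβRII-/- PT cells with H2O2, 26 higher and 4 lower with H2O2 in TβRII flox/flox PT cells, and 18 higher with H2O2 in TβRII-/- PT cells. A different H2O2 effect was called for 3 members on sums over transcripts, for 1 (Slc6a17) at an unadjusted p under 0.01 with a fold change of 1.5, and for between 1 (without replicate 2 of H2O2-treated TβRII-/- PT cells) and 9 (without replicate 1 of TβRII flox/flox, untreated) when single libraries were left out. Members called higher with H2O2 in TβRII-/- PT cells numbered between 2 and 4, the latter without replicate 1 of TβRII-/-, untreated. The other counts stayed within 1.5 times under these alternatives. Of 102 values picked by the naming rule given above, 91 kept their side of the limits in each alternative that tested them. Other calls given in the text lie outside that rule. Among these, the untreated calls of Slc6a9 and Slc22a14 and the Slc12a9 call with H2O2 were each lost in at least 1 alternative. In fits of only the groups compared, the filter on low counts left out the untreated genotype calls of Slc17a4, Slc5a2 and Slc9a9, those of Slc5a2 and Slc6a13 with H2O2, and the call of Slc34a2 with H2O2 in TβRII flox/flox PT cells. Of 1417 recomputed values, 38 lost the call, 3 gained it and none changed direction. The replicate block gave the same 28, 25, 10, 6 and 5 members; same-numbered libraries of different groups did not deviate together (correlation between -0.101 and 0.058). DESeq2 lost only Slc12a5 with H2O2 in TβRII flox/flox PT cells. Members at a few counts per library, among them all but 6 of Slc22, were not tested in the main fit. With no filter on low counts, Slc4a1, Slc5a1, Slc6a20b and Slc47a1 were also called higher in untreated TβRII-/- PT cells. With H2O2, Slc4a1, Slc5a1, Slc26a1 and Slc47a1 were. For the H2O2 effect in TβRII-/- PT cells, that fit added Slc4a1, Slc5a4b and Slc5a9. All of these calls rest on few counts.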
